A study of Mus musculus with 21 samples.

Results

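The 48 genes described here encode proteins of the cell cycle and of mitosis. They were read by their symbols from deposited tables of counts per gene in murine fibroblasts, which listed 24532 genes for mouse embryonic fibroblasts (MEF) and 24455 genes for each of the other 2 fibroblast types. All 48 were found in the 3 tables, and all 48 had enough counts to be tested in every comparison. Of these genes, 37 act in G2 phase and mitosis and 11 act in S-phase entry and DNA synthesis, and they were sorted into 10 roles. Symbols are written in upper case, as in the tables.

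RNA-seq was performed on 21 cultures, in 7 groups of 3, to compare fibroblasts that had or lacked Prrx1, the gene of a homeodomain transcription factor of mesenchymal cells. WT MEF and Prrx1 mutant MEF were taken from embryos between days 10 and 13. The mutant mice carried the allele of the 129S-Prrx1tm1Jfm/Mmmh line, with LacZ inserted in the homeodomain exon, and were labelled C57BL/6 like the WT MEF. A further group of MEF was made deficient in Prrx1 with CRISPR/Cas9 and an sgRNA against Prrx1 (sgPrrx1 MEF). The same was done in MMTV-CAF, which are cancer-associated fibroblasts (CAF) from mammary tumours of MMTV-PyMT mice of strain FVB/NJ, and in wound-healing fibroblasts from the dorsal wounds of C57BL/6 mice at day 10. The labels name SgNS cells as the WT control of sgPrrx1 cells, but they do not say whether the WT MEF, which are also compared with mutant MEF, carried SgNS. Every group, WT included, had been immortalized by overexpression of what the labels spell HPV E6/E, so none was a primary culture. Whether each edited line was a clone or a pool, and how many animals each line came from, were not given. Nor did the labels say whether the 3 replicates of a group, called cultures here, were grown separately. They may be technical, and the p-values below measure only the spread between them.

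In a dividing cell the E2F factors are released from the retinoblastoma protein in late G1 phase and switch on the genes of DNA synthesis, among them the subunits of the MCM helicase. The genes of G2 phase and mitosis are switched on later by the MuvB complex, which works with B-MYB (encoded by MYBL2) and then with FOXM1 at promoter elements called CHR (cell cycle genes homology region), often beside CCAAT boxes bound by NF-Y. Transcripts of both kinds are commonly read as markers of proliferation.

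RefSeq promoters (250 bases before to 50 bases after the annotated start, build GRCm38.p6) were matched by symbol to 41 of the 48 genes. CHR letters (either TTTGAA or the variant TTCGAA) were searched on both strands, as were CCAAT letters and E2F letters. The E2F letters searched were TTGGCGC or its variant TTCCCGC, the run TTCGCGC or its variant TTGGCGG, and the run TTGCCGC. Some E2F letters overlap the reverse complement of CCAAT, as in ATTGGCGG. CHR letters were in 24 of 31 promoters of G2 and mitosis genes (77.4%), against 2 of 10 of the S-phase genes (20%) and 21.7% of all genes in the promoter table (16.4% of the genes tested in a comparison). CCAAT letters were in 23 of the 31 (74.2%) and in 7 of the 10 (70%), against 41.1% of all genes and 42.9% of those tested. CHR and CCAAT letters stood together in 21 of the 31 (67.7%), against 8.61% of all genes and 6.95% of those tested. E2F letters were in 5 of the 31 (16.1%) and in 5 of the 10 (50%), against 13.2% of all genes and 22.5% of those tested, so the share in G2 and mitosis genes lay between the 2 backgrounds. The 6 windows below show both classes for genes whose values are given further on, each as the 120 bases before the start, 5′ to 3′ on the gene's strand, with the searched letters in capitals. A match is a description of letters and not a mapped site.

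CDK1, chr10:69352913-69353032, minus strand: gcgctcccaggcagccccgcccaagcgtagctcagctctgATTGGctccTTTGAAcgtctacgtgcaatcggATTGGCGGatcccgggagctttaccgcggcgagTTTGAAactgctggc
TOP2A, chr11:99024190-99024309, minus strand: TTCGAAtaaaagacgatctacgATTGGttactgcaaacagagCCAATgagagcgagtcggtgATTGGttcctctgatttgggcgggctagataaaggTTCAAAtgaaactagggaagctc
CDC20, chr4:118437344-118437463, minus strand: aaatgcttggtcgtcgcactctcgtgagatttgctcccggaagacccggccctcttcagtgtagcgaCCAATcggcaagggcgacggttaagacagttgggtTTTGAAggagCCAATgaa
ESPL1, chr15:102296173-102296292, plus strand: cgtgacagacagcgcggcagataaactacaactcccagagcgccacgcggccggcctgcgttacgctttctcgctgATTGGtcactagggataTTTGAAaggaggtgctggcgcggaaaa
CCNB1, chr13:100786487-100786606, minus strand: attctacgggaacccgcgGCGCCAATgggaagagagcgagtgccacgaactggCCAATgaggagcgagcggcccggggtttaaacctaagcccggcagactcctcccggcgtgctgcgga
MCM6, chr1:128359706-128359825, minus strand: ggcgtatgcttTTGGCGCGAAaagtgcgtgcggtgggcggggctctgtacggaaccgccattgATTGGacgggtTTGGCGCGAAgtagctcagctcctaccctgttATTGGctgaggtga

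The windows of CDK1, TOP2A, CDC20 and ESPL1 hold CHR and CCAAT letters together, and that of CDK1 also holds E2F letters. The window of CCNB1 holds CCAAT and E2F letters but no CHR letters, and that of MCM6, a helicase subunit, holds 2 runs of E2F letters beside CCAAT letters.

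Between 69588655 and 134790440 reads per culture were counted in genes, and the 48 genes took 0.492% to 1.07% of them. PRRX1 was at 165 to 189.7 CPM (counts per 1000000 reads, scaled over the 21 cultures) in WT MEF and at 19.6 to 26.1 in mutant MEF. In sgPrrx1 cultures PRRX1 remained at 53.3% to 78.6% of the WT mean in MEF, 47.1% to 48.4% in MMTV-CAF and 44.0% to 44.7% in wound-healing fibroblasts, and a guide that cuts the gene need not remove its transcript. The 12 fibroblast markers summed to 12620 to 12930 CPM in WT MEF, 5718 to 6901 in mutant MEF and 9932 to 11730 in sgPrrx1 MEF. The same sum was 33590 to 34410 CPM in WT and 16980 to 17090 in sgPrrx1 MMTV-CAF, and 9540 to 9603 in WT and 3659 to 3713 in sgPrrx1 wound-healing fibroblasts, so it was lower in every group with loss of Prrx1. LUM was at 0 in mutant MEF and in sgPrrx1 wound-healing fibroblasts, and FAP was at 0 in mutant MEF and in sgPrrx1 MMTV-CAF. EPCAM, PTPRC and PECAM1, the defining epithelial, immune and endothelial markers, reached at most 0.222, 0.163 and 0.187 CPM in any culture. The 10 epithelial markers summed to 17.6 to 19.7 CPM in WT MEF and 197.5 to 235.3 in mutant MEF, nearly all of it KRT19. In MMTV-CAF this sum was 52.9 to 54.9 CPM in WT and 0.205 to 0.375 in sgPrrx1 cultures, and in WT again nearly all KRT19. The epithelial sum was 24.4 to 28.6 CPM in sgPrrx1 MEF. In wound-healing fibroblasts it was 53.5 to 57.9 CPM in WT and 66.1 to 71.1 in sgPrrx1 cultures. KRT19 made up 41.1 to 44.3 and 57.0 to 61.3 CPM of these. The 6 pericyte and smooth muscle markers summed to 59.7 to 59.9 CPM in WT and 5.66 to 6.03 in sgPrrx1 MMTV-CAF, 255.5 to 307.9 in WT and 87.7 to 123 in mutant MEF, and 34.4 to 36.3 in WT and 14.9 to 17.7 in sgPrrx1 wound-healing fibroblasts. In sgPrrx1 MEF the pericyte and smooth muscle sum was 186.1 to 230.2 CPM. The 9 immune markers summed to at most 8.13 CPM anywhere. The 8 endothelial markers summed to at most 9.24 CPM except in wound-healing fibroblasts, where KDR alone was at 286 to 292 CPM in WT and 141 to 146 in sgPrrx1 cultures. The 3 Y-linked genes read did not move together. In WT and mutant MEF KDM5D was at 10.5 to 11.6 and at most 0.035 CPM, whereas DDX3Y was at 14.5 to 17.3 and 18.6 to 23.8 and EIF2S3Y at 1.90 to 2.11 and 10.6 to 13.7. In wound-healing fibroblasts DDX3Y was at 20.0 to 22.2 CPM in WT and 1.96 to 2.20 in sgPrrx1 cultures, whereas KDM5D was at 10.1 to 10.6 and 12.8 to 13.3 and EIF2S3Y at 24.2 to 25.1 and 22.9 to 24.3. In MMTV-CAF all 3 were at 0 in WT and in sgPrrx1 cultures, and XIST was at 389 to 456 CPM in WT and 315 to 361 in sgPrrx1 cultures. In every MEF and wound-healing culture XIST was at most 0.142 CPM. The part of these differences in the results that follow was not tested.

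First, the average level of the genes was compared between groups. Over the 37 genes of G2 phase and mitosis, the mean log2(CPM + 0.5) was 6.50 ± 0.049 (SD, n = 3) in WT MEF, 6.95 ± 0.16 in mutant MEF and 6.75 ± 0.11 in sgPrrx1 MEF. It was 6.17 ± 0.017 in WT and 6.82 ± 0.0083 in sgPrrx1 MMTV-CAF, and 6.97 ± 0.013 in WT and 6.83 ± 0.014 in sgPrrx1 wound-healing fibroblasts. The mitotic mean was thus higher with loss of Prrx1 in MEF and MMTV-CAF and lower in wound-healing fibroblasts, in each case without overlap between the cultures. Over the 11 S-phase genes the mean was 8.09 ± 0.022 in WT MEF, 8.25 ± 0.13 in mutant MEF and 8.20 ± 0.056 in sgPrrx1 MEF. It was 7.11 ± 0.012 in WT and 7.60 ± 0.0091 in sgPrrx1 MMTV-CAF, and 7.79 ± 0.0099 in WT and 7.75 ± 0.00091 in sgPrrx1 wound-healing fibroblasts. In bulk RNA more cycling cells and more RNA per cycling cell cannot be told apart.

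**Figure D1:**
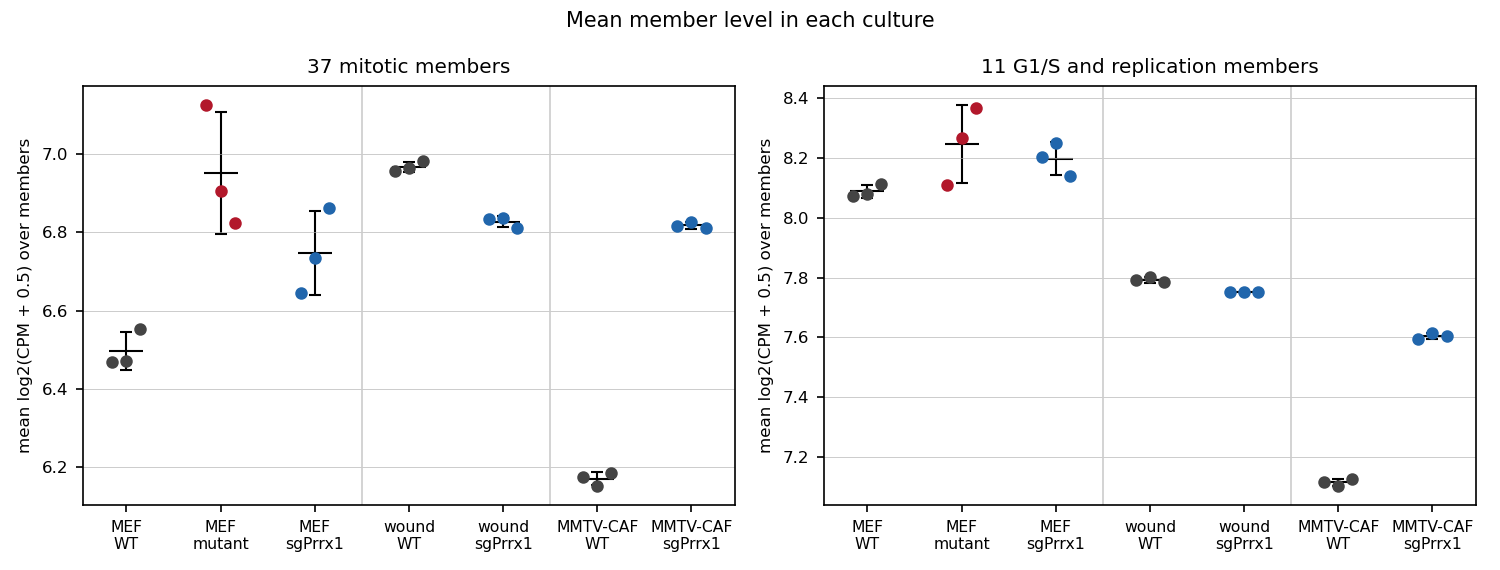
Mean log2(CPM + 0.5) of the 37 genes of G2 phase and mitosis and of the 11 genes of S-phase entry and DNA synthesis in each of the 21 cultures (points), with the mean (line) and SD (bar) of the 3 cultures of a group. The sgPrrx1 MMTV-CAF cultures lie above their WT for both sets, the sgPrrx1 wound-healing cultures lie slightly below theirs, and the MEF groups are spread most widely.

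In MMTV-CAF nearly all of the genes were higher after loss of Prrx1. In sgPrrx1 compared with WT cultures 45 of 48 genes were higher, against 41.2% of the 13903 genes tested, and 1, KIF20A, was lower, against 41.9% of all genes. The mean log2 change was 0.61, which is 1.53-fold, and the median was 0.58, beside a median of -0.00 over all genes tested. PLK1 and E2F1 did not pass the test. With offsets for transcript length and GC content both were called higher, with log2 changes of 0.075 (edgeR adjusted p = 0.00799) and 0.22 (edgeR adjusted p = 2.96e-05). In 6 genes the change was more than 2-fold.

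TOP2A, the topoisomerase that untangles sister chromatids, was at 249.6, 239 and 253 CPM in the 3 WT cultures and 789.6, 802 and 794 in the 3 sgPrrx1 cultures. The groups lay far apart, with a log2 change of 1.68 (SE 0.022, edgeR adjusted p = 3.16e-10). MKI67, which encodes the Ki-67 antigen, rose less, from 234, 214 and 224 to 282, 281 and 276 CPM, with a log2 change of 0.32 (SE 0.031, edgeR adjusted p = 2.57e-05). All 4 genes of the mitotic cyclins and their kinase rose. CDK1, the kinase that drives entry into mitosis, was at 100.4, 97.1 and 98.6 CPM in WT and 201, 211 and 203 in sgPrrx1 cultures, with a log2 change of 1.05 (SE 0.024, edgeR adjusted p = 4.66e-09). CCNA2, which encodes cyclin A2, was at 133, 127 and 136 and 291, 291 and 284 CPM, with a log2 change of 1.13 (SE 0.028, edgeR adjusted p = 6.48e-09). CCNB1, which encodes cyclin B1, rose less, from 90.8, 87.3 and 95.3 to 117, 121 and 119 CPM, with a log2 change of 0.38 (SE 0.032, edgeR adjusted p = 9.52e-06).

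The 4 spindle checkpoint genes rose, by log2 changes from 0.74 (BUB1) to 2.23 (MAD2L1). MAD2L1 encodes MAD2, which holds back anaphase while kinetochores are unattached. It was at 52.2, 53.9 and 53.8 CPM in WT and 248, 250.4 and 253 in sgPrrx1 cultures, the largest change of the 48 genes in this comparison, with a log2 change of 2.23 (SE 0.02, edgeR adjusted p = 6.28e-11). TTK, the checkpoint kinase also called MPS1, rose from 22.5, 23.5 and 23.3 to 49.8, 49.6 and 49.5 CPM, with a log2 change of 1.10 (SE 0.025, edgeR adjusted p = 4.68e-09). All 7 kinetochore and centromere genes rose, by log2 changes from 0.38 (CENPF) to 0.92 (CENPA), and so did the 3 cytokinesis genes. Among the latter ECT2, the exchange factor that activates RhoA at the cleavage furrow, was at 75.2, 72.2 and 70.8 CPM in WT and 155, 157 and 158 in sgPrrx1 cultures, with a log2 change of 1.10 (SE 0.026, edgeR adjusted p = 5.13e-09).

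Of the 9 genes of spindle motors and microtubule proteins 8 rose. The exception was KIF20A, a kinesin of the central spindle, at 199, 199.7 and 201 CPM in WT and 132, 135 and 134 in sgPrrx1 cultures, with a log2 change of -0.59 (SE 0.016, edgeR adjusted p = 1.21e-08). All sgPrrx1 values of KIF20A lay below all WT values. Of the 4 mitotic kinase and passenger genes AURKA, AURKB and BIRC5 rose. PLK1, the Polo kinase of mitosis, was at 89.7, 91.6 and 91.8 and 90.1, 87.8 and 88.0 CPM, overlapping, with a log2 change of -0.04 (SE 0.022, edgeR adjusted p = 0.109). The 4 genes of anaphase promotion and chromatid separation rose, among them CDC20, the activator of the anaphase-promoting complex, from 102, 104 and 107 to 126, 130.0 and 131 CPM, with a log2 change of 0.30 (SE 0.025, edgeR adjusted p = 8.49e-06).

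The S-phase genes moved in the same direction. All 6 MCM genes rose, by log2 changes from 0.29 (MCM6) to 0.78 (MCM4). MCM2 was at 230.4, 227 and 231 and 299.7, 299.7 and 298 CPM, with a log2 change of 0.38 (SE 0.016, edgeR adjusted p = 1.18e-07). PCNA, the sliding clamp of DNA polymerases, rose from 263, 254 and 261 to 359.7, 369.9 and 361 CPM, with a log2 change of 0.48 (SE 0.02, edgeR adjusted p = 1.06e-07). CCNE1, which encodes cyclin E1, the partner of CDK2 at S-phase entry, rose from 34.0, 33.8 and 36.0 to 57.3, 60.1 and 57.8 CPM, with a log2 change of 0.75 (SE 0.032, edgeR adjusted p = 1.44e-07). E2F1, the transcription factor of S-phase entry, was at 54.3, 56.4 and 56.1 CPM in WT and 55.9, 54.6 and 55.6 in sgPrrx1 cultures, with a log2 change of -0.01 (SE 0.024, edgeR adjusted p = 0.727). The 2 groups of E2F1 values overlapped.

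In wound-healing fibroblasts the genes moved in both directions. In sgPrrx1 compared with WT cultures 30 of 48 genes were lower, against 39.3% of the 13939 genes tested, and 11 were higher, against 38.3%. The mean log2 change was -0.13, or 0.912-fold, and the median was -0.19, beside 0.00 over all genes. The change passed 2-fold in 1 gene, SPC24.

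All 4 genes of mitotic cyclins and their kinase fell. CCNB1 was at 214, 216 and 215 CPM in WT and 134, 134 and 132 in sgPrrx1 cultures, with a log2 change of -0.70 (SE 0.018, edgeR adjusted p = 3.95e-09). CDK1 was at 434, 439 and 440.5 and 364, 359 and 354 CPM, with a log2 change of -0.30 (SE 0.017, edgeR adjusted p = 4.87e-07). Neither gene's groups overlapped. The 3 cytokinesis genes fell as well, ECT2 from 202, 202 and 211 to 122, 121 and 123 CPM, with a log2 change of -0.76 (SE 0.022, edgeR adjusted p = 9.39e-09). TOP2A fell from 461, 469.9 and 473 to 355, 359 and 346 CPM, with a log2 change of -0.42 (SE 0.02, edgeR adjusted p = 1.55e-07).

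MKI67 moved the other way. It was at 176, 182 and 191 CPM in WT and 289, 290.1 and 278 in sgPrrx1 cultures, with a log2 change of 0.63 (SE 0.032, edgeR adjusted p = 2.37e-07), so the 2 genes of the proliferation marker and topoisomerase role went in opposite directions. The kinetochore genes were divided too, with 4 lower, 2 higher and CENPA not called. SPC24, a subunit of the NDC80 complex that binds microtubules, was at 47.2, 48.4 and 47.9 and 22.1, 23.3 and 23.1 CPM, with a log2 change of -1.08 (SE 0.03, edgeR adjusted p = 7.15e-09). Its partners NDC80, NUF2 and SPC25 fell by 0.26, 0.21 and 0.30 on the log2 scale. CENPF and CENPE, large proteins of the outer kinetochore, rose. CENPF was at 37.1, 40.5 and 39.3 CPM in WT and 67.9, 69.8 and 64.2 in sgPrrx1 cultures, with a log2 change of 0.77 (SE 0.042, edgeR adjusted p = 3.66e-07). Over all genes tested in this comparison with a known transcript length, those with transcripts longer than 6000 bases had a median log2 change of 0.28 and those shorter than 1000 bases one of -0.19. MKI67, CENPE, CENPF and ESPL1 have the 4 longest transcripts of the 48 genes (10075, 7813, 11137 and 6630 bases). With offsets for transcript length and GC content the log2 changes of MKI67, CENPF and ESPL1 were 0.29, 0.48 and 0.21, and all 3 still passed the test. The value of CENPE with offsets was not read. Of the 41 genes called in this comparison, 39 were called in the same direction with offsets.

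Of the 9 genes of spindle motors and microtubule proteins 4 were lower (KIF20A, NUSAP1, DLGAP5 and HMMR) and 3 were higher (KIF23, KIF2C and PRC1). Of the 4 checkpoint genes 3 were lower and BUB1B was not called. AURKA, AURKB and BIRC5 were lower, whereas PLK1 rose from 94.9, 94.1 and 96.5 to 103, 102 and 106 CPM, a small step with a log2 change of 0.11 (SE 0.021, edgeR adjusted p = 0.00141). In the anaphase role CDC20 and UBE2C were lower and ESPL1 was higher. ESPL1 encodes separase, the protease that opens cohesin. It rose from 57.3, 54.4 and 55.5 to 86.1, 84.7 and 87.5 CPM, with a log2 change of 0.61 (SE 0.027, edgeR adjusted p = 9.77e-08). CDC20 was at 197, 193 and 196 and 179, 182 and 188 CPM, with a log2 change of -0.11 (SE 0.023, edgeR adjusted p = 0.00261).

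The MCM genes were divided, with MCM3, MCM5 and MCM6 lower, MCM4 and MCM7 higher and MCM2 not called. MCM4 and MCM6, which sit in the same helicase core, had log2 changes of 0.40 (edgeR adjusted p = 3.28e-07) and -0.30 (edgeR adjusted p = 6.5e-07). MCM2 was at 259, 264 and 262 and 259.6, 263 and 256 CPM, with a log2 change of -0.03 (SE 0.019, edgeR adjusted p = 0.216). It was called lower with upper quartile scaling (edgeR adjusted p = 0.0326) and with offsets for transcript length and GC content (edgeR adjusted p = 1.67e-05). PCNA fell from 726, 730.1 and 720.0 to 537, 549 and 538 CPM, with a log2 change of -0.44 (SE 0.016, edgeR adjusted p = 3.19e-08), while CCNE1 rose from 80.0, 81.6 and 79.3 to 102, 101 and 104, with a log2 change of 0.34 (SE 0.023, edgeR adjusted p = 1.43e-06). E2F1 fell from 78.8, 79.2 and 76.1 to 70.1, 67.7 and 70.1 CPM, with a log2 change of -0.19 (SE 0.027, edgeR adjusted p = 0.000251). Cultures of wound-healing fibroblasts differed little within a group, with a median coefficient of variation of 1.43% in WT and 1.40% in sgPrrx1 over the 48 genes, so that changes as small as that of PLK1 passed the test.

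In mutant MEF the mitotic genes were higher on average than in WT MEF and the MCM genes were not. Of the 48 genes 23 were higher, against 29.4% of the 13616 genes tested, and 2, MCM3 and PCNA, were lower, against 30.5%. The mean log2 change was 0.37, or 1.29-fold, and the median was 0.41, beside 0.01 over all genes. By role, 20 of 37 mitotic genes and 3 of the 11 S-phase genes (CCNE1, RRM2 and TYMS) were higher, and both lower genes were S-phase genes.

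The change passed 2-fold in 4 genes. PTTG1, which encodes securin, the inhibitor of separase, was at 5.00, 5.25 and 7.14 CPM in WT and 22.2, 15.1 and 13.3 in mutant MEF, with a log2 change of 1.51 (SE 0.23, edgeR adjusted p = 0.00138). MAD2L1 was at 38.5, 38.9 and 50.4 and 140.4, 118 and 92.6 CPM, with a log2 change of 1.44 (SE 0.18, edgeR adjusted p = 0.000539). BIRC5, which encodes survivin of the chromosomal passenger complex, was at 42.7, 30.6 and 35.1 and 103, 68.4 and 71.5 CPM, with a log2 change of 1.14 (SE 0.20, edgeR adjusted p = 0.00239). CENPA, the centromeric histone H3, was the other gene past 2-fold, with a log2 change of 1.01 (SE 0.20, edgeR adjusted p = 0.00462). For these 4 genes every mutant culture lay above every WT culture, and replicate 1 of the mutant was the highest.

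MKI67 was at 279, 306 and 331 CPM in WT and 630.3, 476 and 416 in mutant MEF, with a log2 change of 0.71 (SE 0.16, edgeR adjusted p = 0.00818). CDK1 was at 141, 139.8 and 153 and 267, 243 and 201 CPM, with a log2 change of 0.69 (SE 0.12, edgeR adjusted p = 0.00244). Both genes rose without overlap, and so did CCNA2 and CCNB2. CCNB1 did not follow its partner: its values of 253, 260.5 and 211 in WT and 209, 254 and 283 in mutant MEF overlapped, with a log2 change of 0.01 (SE 0.13, edgeR adjusted p = 0.932). PLK1 (196, 194 and 172 against 186, 208 and 235 CPM) overlapped too, with a log2 change of 0.14 (SE 0.11, edgeR adjusted p = 0.302). CDC20 was at 268, 275 and 275 and 231, 264 and 281 CPM, with a log2 change of -0.10 (SE 0.088, edgeR adjusted p = 0.337). TOP2A was at 427, 411 and 413 and 520.5, 461 and 442 CPM, which did not overlap, but a log2 change of 0.16 (SE 0.09, edgeR adjusted p = 0.164) did not pass the test.

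Among the S-phase genes CCNE1 rose from 52.0, 53.7 and 59.4 to 85.6, 87.8 and 84.9 CPM, with a log2 change of 0.62 (SE 0.076, edgeR adjusted p = 0.000498). RRM2, a subunit of ribonucleotide reductase, and TYMS, thymidylate synthase, both rose by 0.51 on the log2 scale. MCM3 fell from 798, 824 and 832 to 532, 572 and 597 CPM, with a log2 change of -0.56 (SE 0.075, edgeR adjusted p = 0.000767). PCNA was at 505, 526 and 482 in WT and 346, 409.5 and 449.7 in mutant MEF, with a log2 change of -0.36 (SE 0.11, edgeR adjusted p = 0.0241). The call of PCNA was lost without WT replicate 1 or 2 or mutant replicate 2, with adjusted p between 0.065 and 0.0882. MCM2 was at 717, 675 and 539.6 and 596, 759.7 and 881 CPM, with a log2 change of 0.18 (SE 0.17, edgeR adjusted p = 0.373), and its groups overlapped.

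E2F1 varied widely between MEF cultures. It was at 55.7, 63.9 and 150.3 CPM in WT and 95.9, 115 and 143 in mutant MEF, with a log2 change of 0.36 (SE 0.37, edgeR adjusted p = 0.422). WT replicate 3 stood well above the other 2 WT cultures, and without it E2F1 was called higher, with a log2 change of 0.95 and an edgeR adjusted p of 0.00677. Over the 48 genes the median coefficient of variation was 7.01% in WT MEF, 12.9% in mutant MEF and 9.51% in sgPrrx1 MEF. Mutant replicate 1 had the highest mean of the mitotic genes (7.13) and the lowest mean of the S-phase genes (8.11) of the 3 mutant cultures.

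In sgPrrx1 MEF, which share the WT cultures with the comparison above, the changes were smaller. Of the 48 genes 13 were higher than in WT MEF, against 20.3% of the 13372 genes tested, and 1, HMMR, was lower, against 22.8%. The mean log2 change was 0.19, or 1.14-fold, and the median was 0.20, beside 0.00 over all genes, and no gene passed 2-fold. The number of genes called higher ranged from 5, without WT replicate 2, to 19, without WT replicate 3, and was 8 without sgPrrx1 replicate 2. The call of HMMR, a spindle protein also known as a hyaluronan receptor, was lost in 5 of the 6 fits that left out a culture, and with RLE scaling or without a filter on low counts.

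The checkpoint genes BUB1, MAD2L1 and TTK rose, as did CDK1 and CCNA2, AURKB and BIRC5, PTTG1 and ESPL1, ANLN and ECT2, NDC80 and MCM3. PTTG1 was at 5.00, 5.25 and 7.14 CPM in WT and 8.32, 9.56 and 12.3 in sgPrrx1 MEF, with a log2 change of 0.76 (SE 0.19, edgeR adjusted p = 0.0179). Its call was lost without WT replicate 1 or 2 (adjusted p 0.0572 and 0.0616). NDC80, the long arm of the kinetochore's microtubule-binding complex, was at 24.2, 24.3 and 26.8 and 32.5, 39.4 and 48.2 CPM, with a log2 change of 0.64 (SE 0.14, edgeR adjusted p = 0.011). The call of NDC80 was lost with all 9 MEF cultures in 1 fit (edgeR adjusted p = 0.0532). MCM3 was at 798, 824 and 832 CPM in WT and 1286, 1290.1 and 1192 in sgPrrx1 MEF, with a log2 change of 0.59 (SE 0.065, edgeR adjusted p = 0.000643). All 3 sgPrrx1 values of MCM3 were far above all WT values. CDK1 was at 141, 139.8 and 153 and 176, 191 and 225 CPM, with a log2 change of 0.42 (SE 0.10, edgeR adjusted p = 0.0152), which was lost without WT replicate 2 (adjusted p 0.0588).

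Several markers of proliferation did not pass the test in sgPrrx1 MEF, but for MKI67, MCM2 and CCNE1 this depended on the fit. By DESeq2 their adjusted p was 0.0358, 0.0447 and 0.0463. MKI67 was also called without sgPrrx1 replicate 1 and with offsets for transcript length and GC content (adjusted p 0.0324 and 0.0293), and MCM2 and CCNE1 were called without WT replicate 3 (adjusted p 0.0209 and 0.0266). MKI67 was at 341, 375 and 463 CPM in sgPrrx1 MEF, above all WT values given earlier, with a log2 change of 0.33 (SE 0.13, edgeR adjusted p = 0.0679). TOP2A was at 445, 479 and 506 CPM, with a log2 change of 0.16 (SE 0.069, edgeR adjusted p = 0.0983). CCNB1 was at 266, 239 and 214, within the spread of WT, with a log2 change of -0.04 (SE 0.11, edgeR adjusted p = 0.775). PLK1 (190.3, 181 and 156 CPM) and CDC20 (293, 275 and 253 CPM) overlapped WT, with log2 changes of -0.12 (edgeR adjusted p = 0.321) and -0.03 (edgeR adjusted p = 0.77). MCM2 was at 587, 522 and 449 CPM, with a log2 change of -0.34 (SE 0.14, edgeR adjusted p = 0.0788). PCNA was at 572, 522 and 453 CPM on both sides of the WT values, with a log2 change of 0.00 (SE 0.094, edgeR adjusted p = 0.994). CCNE1 was at 62.1, 64.9 and 67.0, with a log2 change of 0.20 (SE 0.074, edgeR adjusted p = 0.0648), and E2F1 at 74.5, 151 and 124, with a log2 change of 0.34 (SE 0.42, edgeR adjusted p = 0.529). Without WT replicate 3 the log2 change of E2F1 was 0.93 and passed the test (edgeR adjusted p = 0.0395).

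**Figure D2:**
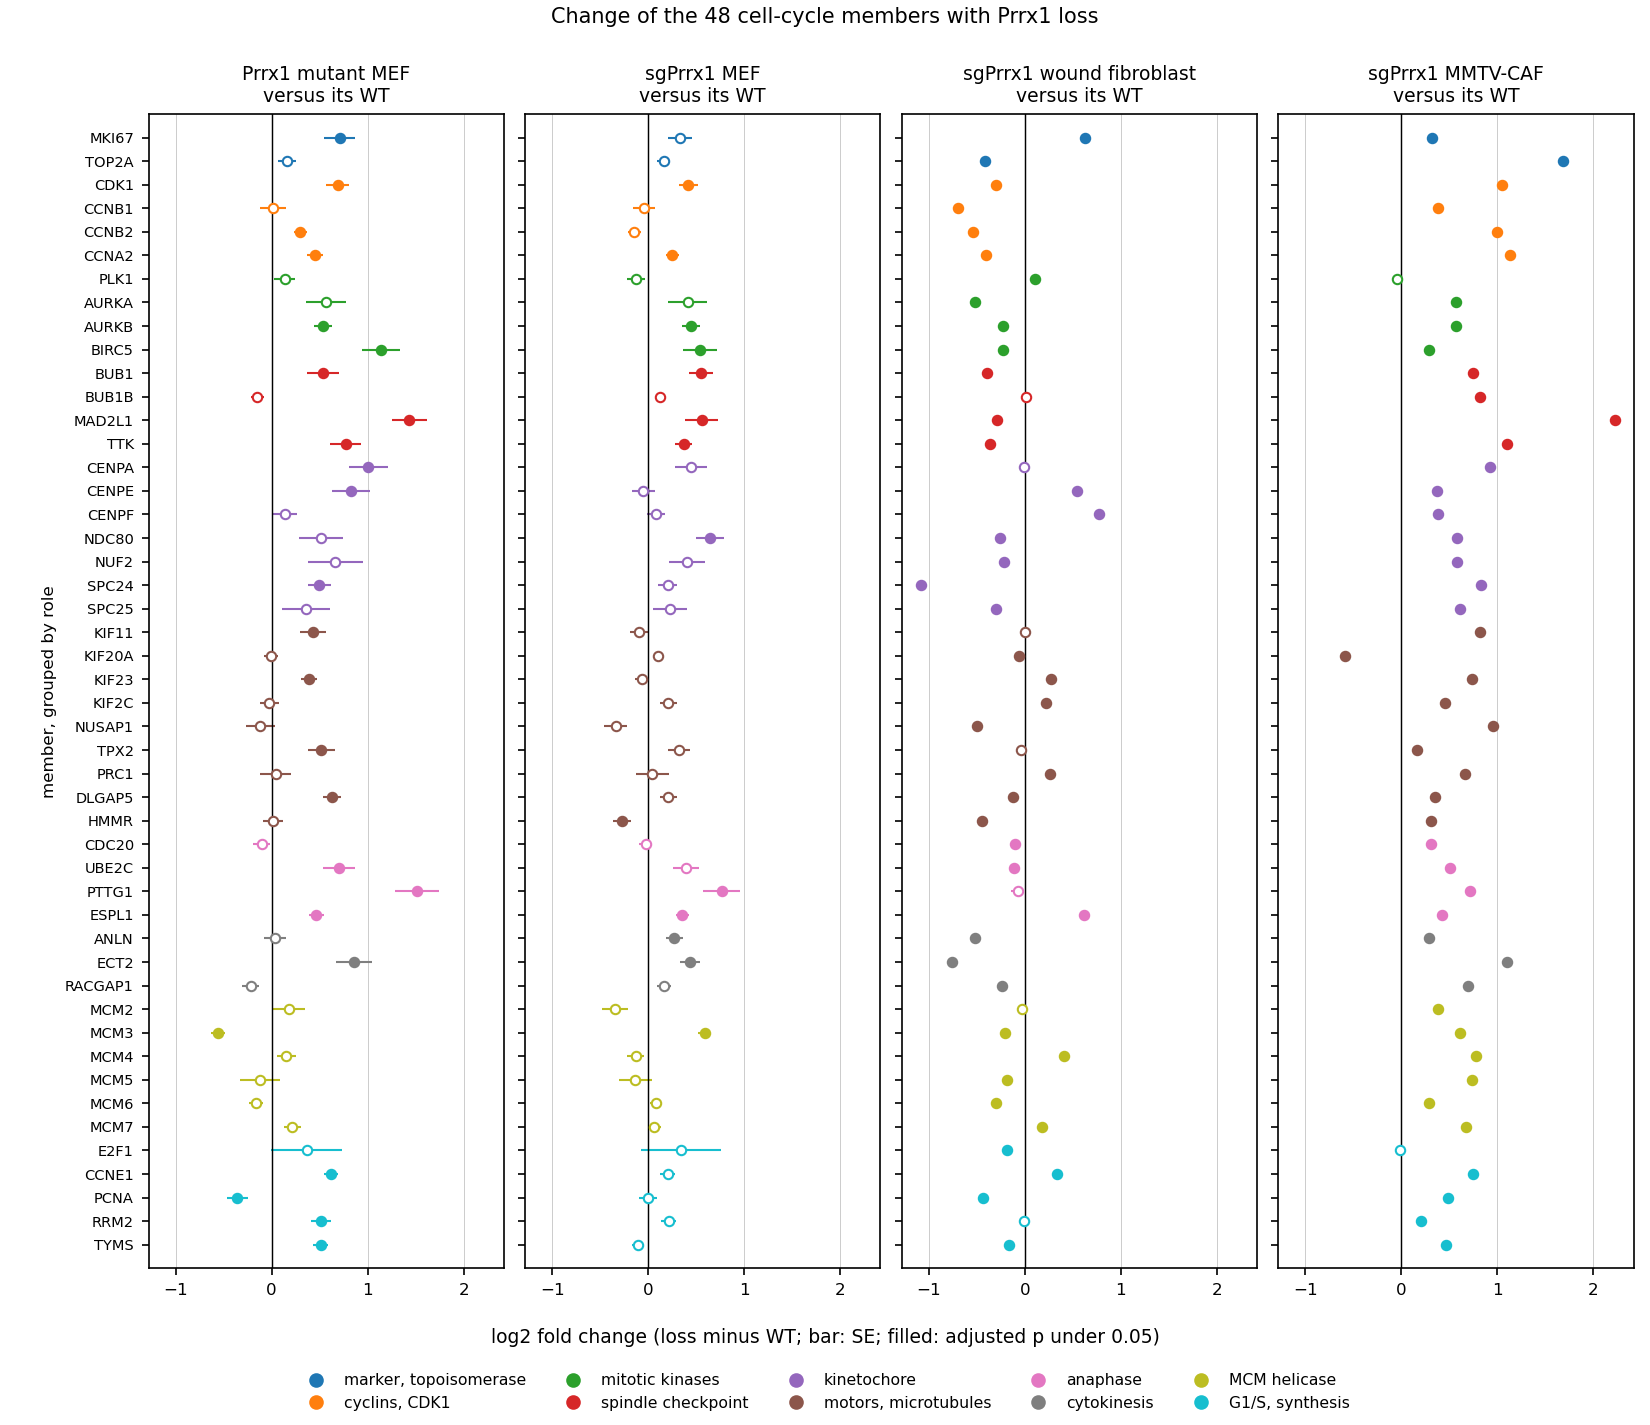
Log2 change (point) with its SE (bar) of each of the 48 genes in the 4 comparisons of a group with loss of Prrx1 with WT of the same cell type, coloured by role; filled points have an edgeR adjusted p under 0.05. Almost all points of MMTV-CAF lie to the right of 0, those of wound-healing fibroblasts lie on both sides, and those of MEF have the widest bars.

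The 2 kinds of Prrx1-deficient MEF were next compared with each other. Relative to mutant MEF, 17 of 48 genes were lower in sgPrrx1 MEF, against 28.4% of the 13379 genes tested, and 5 were higher, against 27.8%. The mean log2 difference was -0.19. The number lower was 7 without sgPrrx1 replicate 2 and 11 without sgPrrx1 replicate 1. The 5 higher genes were BUB1B, KIF2C, RACGAP1, MCM6 and MCM3, and 3 remained without mutant replicate 2 or sgPrrx1 replicate 2. MCM3 had the largest of these differences, with a log2 difference of 1.14 (SE 0.076, edgeR adjusted p = 4.17e-05), since it was below WT in mutant MEF and above WT in sgPrrx1 MEF. Among the lower genes were MAD2L1 (log2 difference -0.88 (edgeR adjusted p = 0.0086)), CENPE (-0.88 (edgeR adjusted p = 0.0126)) and TYMS (-0.63 (edgeR adjusted p = 0.000677)). CDK1, MKI67, CCNB1, TOP2A, PLK1, CDC20, E2F1 and PCNA did not differ past the threshold, with log2 differences from -0.38 to 0.35.

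MCM2 was lower in sgPrrx1 MEF than in mutant MEF (log2 difference -0.53 (edgeR adjusted p = 0.0316)), and CCNE1 was lower as well (-0.42 (edgeR adjusted p = 0.00105)). PRRX1 itself was higher in sgPrrx1 MEF, by 2.44 on the log2 scale.

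Whether the effect of sgPrrx1 depended on the cell type was tested directly, with the interaction of cell type and sgPrrx1 over the 18 WT and sgPrrx1 cultures. The effect differed between the 3 cell types for 45 of 48 genes, against 80.1% of the 14972 genes tested, so most genes of the transcriptome differed too. The smallest adjusted p-values were those of TOP2A (edgeR adjusted p = 4.94e-14), CCNB2 (1.18e-12) and BUB1B (1.9e-11). MKI67, PLK1 and E2F1 did not pass the test, with edgeR adjusted p = 0.0741, 0.147 and 0.416.

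Between MMTV-CAF and wound-healing fibroblasts the effect differed for 44 genes, against 66.5% of all genes, and was more positive in MMTV-CAF for 41. The mean difference of log2 changes was 0.80. It was largest for MAD2L1 (2.57), TOP2A (2.15), SPC24 (1.97) and ECT2 (1.92). KIF20A, CENPF and ESPL1 were the 3 genes with a more negative effect in MMTV-CAF, by log2 differences of -0.47, -0.34 and -0.14. Between wound-healing fibroblasts and MEF it differed for 34 genes, against 60.3% of all genes, with 29 more negative in wound-healing fibroblasts and 5 more positive (CENPE, CENPF, KIF23, ESPL1 and MCM4). Between MMTV-CAF and MEF it differed for 31 of 48 genes, a share close to the 60.7% of all genes. Of these, 30 were more positive in MMTV-CAF and 1, KIF20A, was more negative. For these pairs of cell types the directions were not counted over all genes. Culture line and deposited table differ together with cell type here and cannot be told apart from it. For MMTV-CAF (FVB/NJ, against C57BL/6 in the other 2) the same holds for strain. It also holds there for the presence of XIST and the absence of the Y-linked transcripts given above.

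Read across the comparisons, 28 genes were lower in sgPrrx1 wound-healing fibroblasts and higher in sgPrrx1 MMTV-CAF (58.3% of the 48), against 19% of the 13086 genes tested in both comparisons, and 10 were higher in both (20.8%), against 13.6% (MKI67, CENPE, CENPF, KIF23, KIF2C, PRC1, ESPL1, MCM4, MCM7 and CCNE1). Of the 48, ESPL1 was the only gene called higher in all 4 comparisons with WT. This share (2.08% of the 48) was close to the 1.73% of the 12582 genes tested in all 4. Its values were 103, 104 and 114 CPM in WT MEF, 151, 148 and 152 in mutant MEF and 136, 143 and 139 in sgPrrx1 MEF. In MMTV-CAF it rose from 65.7, 64.3 and 66.1 to 87.1, 87.9 and 88.9 CPM. Its log2 changes were 0.47 (edgeR adjusted p = 0.00157) in mutant MEF, 0.36 (edgeR adjusted p = 0.00607) in sgPrrx1 MEF, 0.61 (edgeR adjusted p = 9.77e-08) in wound-healing fibroblasts and 0.42 (edgeR adjusted p = 4.66e-07) in MMTV-CAF. The rise of ESPL1 in wound-healing fibroblasts was smaller with offsets for transcript length and GC content, as given earlier. MCM3 had a call in each comparison too, but in alternate directions, lower in mutant MEF and wound-healing fibroblasts and higher in sgPrrx1 MEF and MMTV-CAF.

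**Figure D3:**
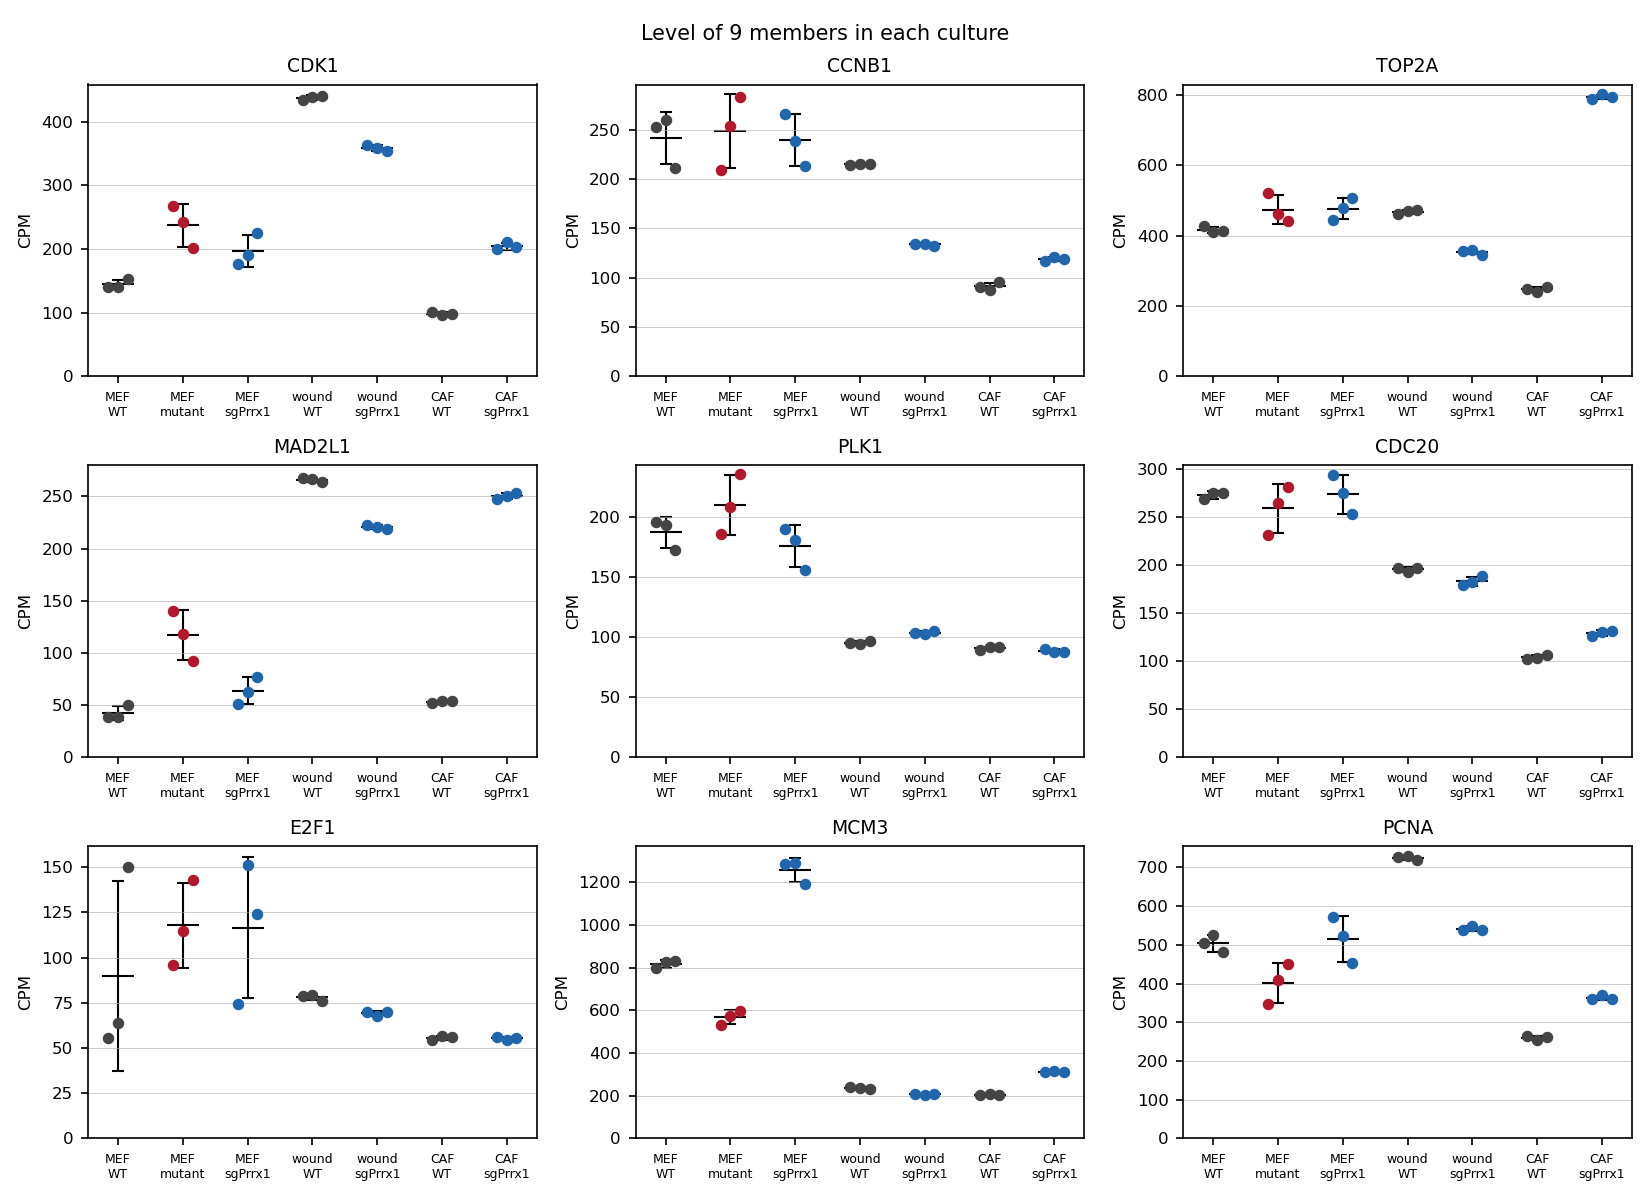
CPM of 9 genes in each culture (points) with the mean and SD of each group of 3; CAF stands for MMTV-CAF. TOP2A and MAD2L1 are far higher in sgPrrx1 than in WT MMTV-CAF, MCM3 lies below WT in mutant MEF and above it in sgPrrx1 MEF, and E2F1 is spread widely in WT MEF.

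Levels in WT cells were compared between the 3 cell types in 1 fit over the 9 WT cultures. Cell type was confounded with the culture line and the deposited table. In the comparisons with MMTV-CAF it was also confounded with strain and with the levels of XIST and the Y-linked genes given above. In WT wound-healing fibroblasts compared with WT MEF 27 of 48 genes were higher, against 40.9% of the 14380 genes tested, and 18 were lower, against 39.4%. All 6 MCM genes were lower, with a median log2 difference of -1.09, while 5 of 7 kinetochore and centromere genes were higher, with a median of 1.75. MCM3 was at 798, 824 and 832 CPM in WT MEF and 239, 234 and 233 in WT wound-healing fibroblasts, a log2 difference of -1.78 (edgeR adjusted p = 6.21e-10). NDC80 was at 24.2, 24.3 and 26.8 and 84.1, 81.8 and 83.5 CPM, a log2 difference of 1.75 (edgeR adjusted p = 2.04e-09). CDK1 was at 141, 139.8 and 153 and 434, 439 and 440.5 CPM, a log2 difference of 1.61 (edgeR adjusted p = 2.38e-09). With offsets for transcript length and GC content the mean difference was 0.10 instead of 0.31, and KIF11, HMMR, ESPL1 and PCNA were called in the opposite direction.

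WT MMTV-CAF had the lowest levels. Compared with WT MEF 39 genes were lower, against 38.6% of all genes, and 5 were higher (MAD2L1, CENPA, NDC80, NUF2 and PTTG1), against 40.6%. MAD2L1 was called lower with the offsets. All 11 S-phase genes were lower. For E2F1 the cultures overlapped, at 54.3 to 56.4 CPM in WT MMTV-CAF and 55.7 to 150.3 in WT MEF, where replicate 3 was the highest. The mean log2 difference was -0.57. MCM3 was at 203, 207 and 203 CPM in WT MMTV-CAF, a log2 difference of -2.08 (edgeR adjusted p = 1.49e-10) from WT MEF. CDC20 was at 102, 104 and 107 CPM, a log2 difference of -1.47 (edgeR adjusted p = 1.25e-09). RACGAP1, a GTPase-activating protein of the central spindle, was at 423, 469 and 455 CPM in WT MEF and 206, 197 and 205 in WT MMTV-CAF, a log2 difference of -1.23 (edgeR adjusted p = 1.44e-08).

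Compared with WT wound-healing fibroblasts 39 genes were lower in WT MMTV-CAF, against 41.1% of all genes, and 5 were higher (MKI67, CENPE, CENPF, PTTG1 and ESPL1), against 39.4%. MKI67 and ESPL1 were called lower with the offsets. The mean log2 difference was -0.87, and the number higher was 3 without WT MMTV-CAF replicate 3 or WT wound-healing replicate 1 or 2. CDK1 had a log2 difference of -2.25 (edgeR adjusted p = 3.52e-10), TYMS -1.46 (edgeR adjusted p = 1.1e-09) and PCNA -1.58 (edgeR adjusted p = 1.62e-09). These 3 genes lay highest in WT wound-healing fibroblasts, next in WT MEF and lowest in WT MMTV-CAF, without overlap between the cell types. For PCNA the order of the first 2 depended on the fit, since with the offsets it was called lower in wound-healing fibroblasts than in MEF. The 3 cell types therefore took different orders for different roles, since the MCM genes lay highest in WT MEF. MCM4 and MCM6 did not differ past the threshold between wound-healing fibroblasts and MMTV-CAF (log2 differences -0.07 (edgeR adjusted p = 0.411) and -0.09 (edgeR adjusted p = 0.0719)). Of the remaining genes named in every comparison, MKI67 lay highest in WT MEF, and E2F1, CCNB1 and PLK1 had the lowest mean in WT MMTV-CAF, with E2F1 not past the threshold against wound-healing fibroblasts (-0.59 (edgeR adjusted p = 0.111)).

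**Figure D4:**
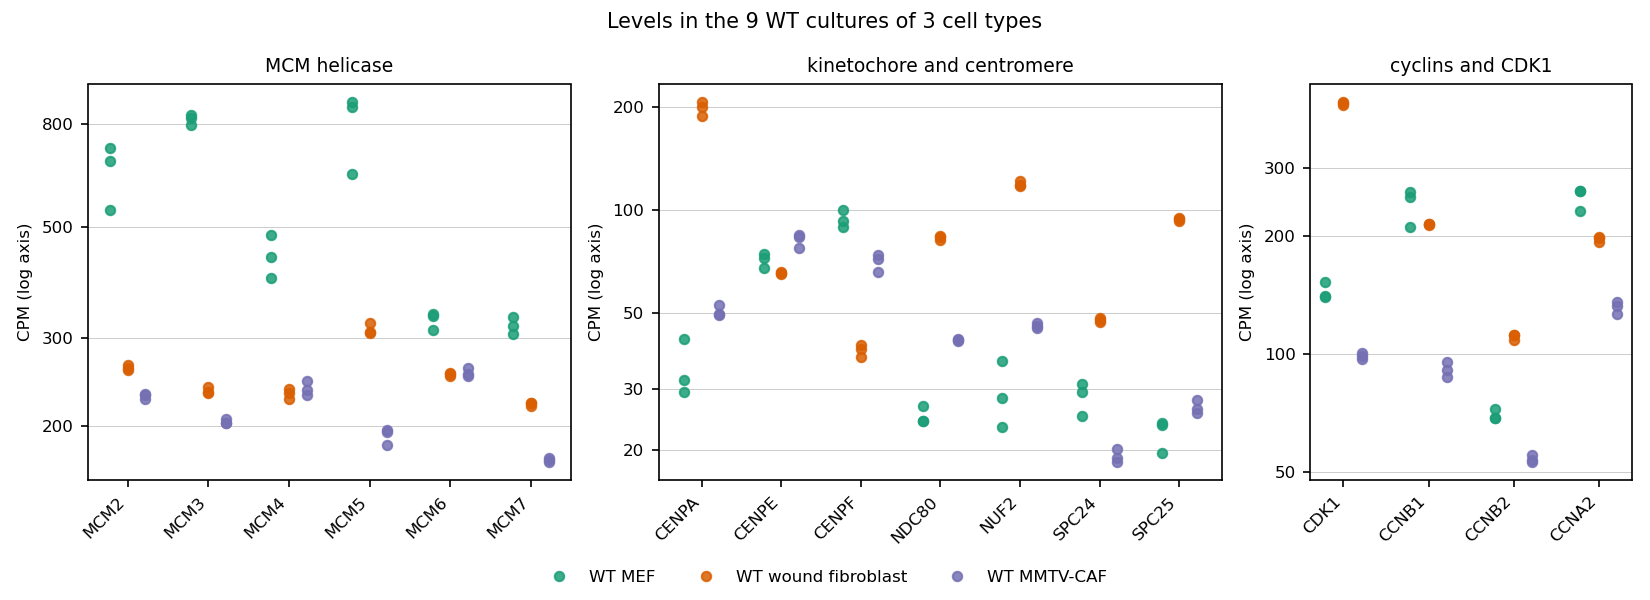
CPM on a log axis in the 9 WT cultures for the 6 MCM genes, the 7 kinetochore and centromere genes and the genes of CDK1 and mitotic cyclins; each point is a culture. MCM genes lie highest in MEF, most kinetochore genes lie highest in wound-healing fibroblasts, and CDK1 lies highest in wound-healing fibroblasts and lowest in MMTV-CAF.

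The other genes of these pathways were read from lists of 139 cell-cycle genes that share no gene with the 48. In sgPrrx1 MMTV-CAF 123 of them were higher (88.5%, against 41.2% of all genes tested) and 10 lower (7.19%, against 41.9%), with a median log2 change of 0.68. In sgPrrx1 wound-healing fibroblasts 54 were higher (38.8%, against 38.3% of all genes) and 60 lower (43.2%, against 39.3%), shares close to the background, with a median of -0.03. In mutant MEF 70 were higher (50.4%, against 29.4%) and 18 lower (12.9%, against 30.5%; median 0.33), and in sgPrrx1 MEF 56 were higher (40.3%, against 20.3%) and 4 (CCND2, RFC2, FAM64A and CIT) were lower (2.88%, against 22.8%; median 0.26). By list, 37 of 40 further replication genes and 60 of 66 further mitosis genes were higher in sgPrrx1 MMTV-CAF. In wound-healing fibroblasts 16 of the replication genes were higher and 15 lower, and 24 of the mitosis genes were higher and 32 lower. Of the 19 regulators of the E2F, RB and MuvB system 17 were higher in sgPrrx1 MMTV-CAF, 8 were higher and 8 lower in wound-healing fibroblasts, 9 were higher and 2 (RBL2 and LIN54) lower in mutant MEF, and 5 (E2F2, E2F4, E2F7, RBBP4 and MYBL2) were higher in sgPrrx1 MEF. RB1, the retinoblastoma gene, was the 1 regulator that was lower in sgPrrx1 MMTV-CAF, with a log2 change of -0.24 (SE 0.06, edgeR adjusted p = 0.0057).

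MYBL2, which encodes B-MYB, rose in all 4 comparisons. Its log2 changes were 0.69 (edgeR adjusted p = 0.000239) in mutant MEF, 0.72 (edgeR adjusted p = 0.000218) in sgPrrx1 MEF, 0.31 (edgeR adjusted p = 2.68e-06) in wound-healing fibroblasts and 0.73 (edgeR adjusted p = 3.36e-08) in MMTV-CAF. FOXM1 was at 207, 221 and 240.2 CPM in WT MEF, 341, 364 and 379.5 in mutant MEF and 226, 231 and 215 in sgPrrx1 MEF. It rose in mutant MEF, with a log2 change of 0.67 (SE 0.084, edgeR adjusted p = 0.000539), and its groups overlapped in sgPrrx1 MEF, with a log2 change of -0.02 (SE 0.074, edgeR adjusted p = 0.812). In wound-healing fibroblasts FOXM1 rose from 113, 112 and 114 to 164, 166 and 165 CPM, with a log2 change of 0.53 (SE 0.018, edgeR adjusted p = 2.36e-08), although CCNB1, ECT2 and SPC24 fell there. In MMTV-CAF it rose with a log2 change of 0.27 (SE 0.018, edgeR adjusted p = 1.98e-06).

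Of 14 further genes of cyclins and CDK control, 9 were higher in sgPrrx1 MMTV-CAF (64.3%, against 41.2% of all genes). The 3 lower (21.4%, against 41.9%) were CCND1, CCND2 and CDK4. In wound-healing fibroblasts 6 were higher, the 3 D-type cyclins and CDK6 among them, and 5 (CDK2, CDK4, CDC25B, CKS1B and CKS2) were lower. These shares (42.9% and 35.7%) were close to those of all genes (38.3% and 39.3%). In mutant MEF 5 were higher (CCNE2, CDK2, CDC25A, CKS1B and CKS2) and 4 were lower (CCND1, CCND2, CDK6 and CDC25B), and in sgPrrx1 MEF 7 were higher and CCND2 was lower. The shares in mutant MEF (35.7% higher and 28.6% lower) were near those of all genes (29.4% and 30.5%). In sgPrrx1 MEF they were 50% and 7.14%, against 20.3% and 22.8%. CCND1 encodes cyclin D1, which joins growth signals to phosphorylation of the retinoblastoma protein. It was at 672, 674 and 657 CPM in WT MEF, 148, 159 and 175 in mutant MEF and 947, 892 and 837 in sgPrrx1 MEF. The mutant cultures lay far below WT, with a log2 change of -2.09 (SE 0.086, edgeR adjusted p = 4.47e-06), and the sgPrrx1 cultures lay above it, with a log2 change of 0.39 (SE 0.068, edgeR adjusted p = 0.00433). In wound-healing fibroblasts CCND1 rose from 223, 226 and 217 to 369.6, 372 and 374 CPM, with a log2 change of 0.73 (SE 0.021, edgeR adjusted p = 9.09e-09), and in MMTV-CAF it had a log2 change of -0.07 (SE 0.016, edgeR adjusted p = 0.00472). CDK6, a partner of cyclin D, had the largest rise of the lists in MMTV-CAF, from 42.0, 41.4 and 42.3 to 148, 152 and 147 CPM, with a log2 change of 1.83 (SE 0.022, edgeR adjusted p = 1.99e-10). CEP55, a protein of abscission, rose most in mutant MEF, from 10.8, 11.8 and 16.5 to 62.0, 34.3 and 32.0 CPM, with a log2 change of 1.69 (SE 0.29, edgeR adjusted p = 0.00244). CENPK, a kinetochore subunit, fell most in wound-healing fibroblasts, from 29.7 to 31.3 CPM in WT to 17.5 to 18.8 in sgPrrx1 cultures, with a log2 change of -0.76 (SE 0.037, edgeR adjusted p = 1.81e-07).

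Of 8 CDK inhibitor genes, 6 were higher in sgPrrx1 MMTV-CAF (75%, against 41.2% of all genes). The 2 lower (25%, against 41.9%) were CDKN1A and CDKN1C. In wound-healing fibroblasts 3 were higher (CDKN1A, CDKN1C and CDKN2A) and 5 were lower (CDKN1B, CDKN2B, CDKN2C, CDKN2D and CDKN3). These shares were 37.5% and 62.5%, against 38.3% and 39.3% of all genes. In mutant MEF 4 were higher (CDKN1B, CDKN1C, CDKN2D and CDKN3) and 2 were lower (CDKN2A and CDKN2B), and in sgPrrx1 MEF CDKN2B was lower. The shares in mutant MEF were 50% and 25%, against 29.4% and 30.5% of all genes. In sgPrrx1 MEF the share lower was 12.5%, against 22.8%. CDKN1A encodes p21, an inhibitor of cyclin-CDK complexes. In MMTV-CAF it fell from 174, 183 and 180.3 to 77.6, 78.1 and 78.4 CPM, with a log2 change of -1.20 (SE 0.022, edgeR adjusted p = 1.64e-09). In wound-healing fibroblasts it rose from 243, 235 and 244 to 553, 537 and 558 CPM, with a log2 change of 1.18 (SE 0.022, edgeR adjusted p = 7.52e-10). CDKN1A thus moved opposite to the mean of the 48 genes in both cell types. In MEF it was at 88.3, 90.3 and 208 CPM in WT, 128, 132 and 53.0 in mutant and 207, 192 and 178 in sgPrrx1 cultures, with overlap and no call (log2 changes -0.33 (edgeR adjusted p = 0.55) and 0.55 (edgeR adjusted p = 0.205)).

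CDKN2A, which encodes p16INK4a and ARF, fell in mutant MEF, with a log2 change of -0.75 (SE 0.13, edgeR adjusted p = 0.0027). It rose in MMTV-CAF from 98.9, 94.5 and 94.4 to 221, 221 and 225 CPM, with a log2 change of 1.21 (SE 0.023, edgeR adjusted p = 1.81e-09), alongside the rise of the 45 genes. In wound-healing fibroblasts it had a log2 change of 0.06 (SE 0.022, edgeR adjusted p = 0.0364). CDKN2B, which encodes p15INK4b, fell most of the lists in sgPrrx1 MEF, from 39.4, 43.2 and 42.5 to 22.9, 23.3 and 24.7 CPM, with a log2 change of -0.85 (SE 0.072, edgeR adjusted p = 0.000215). CDKN1C, which encodes p57, was at 0 in all 3 sgPrrx1 MMTV-CAF cultures and at 0.947 to 1.22 CPM in WT.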

How the data were processed

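The authors trimmed reads with Trimmomatic, used STAR for alignment to mm10 and HTSeq for counting. Each deposited value is a whole-number count of the reads assigned to a gene. The methods name ComBat-seq batch correction after counting but do not say whether the deposited counts precede it. No column went unused (0 lacked a sample). Columns of wound-healing fibroblasts name only genotype and number, and were assigned by elimination. Rows without a gene name were absent from the tables.

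Each comparison of 2 groups used the 6 cultures of those groups, with filterByExpr, TMM scaling and the quasi-likelihood test of edgeR 4.0.16 (R 4.3.3), Benjamini-Hochberg adjustment over all genes tested and a threshold of 0.05. WT levels used 1 fit over 9 WT cultures, and the interaction 1 fit over 18. CPM values share 1 TMM scaling over the 21 cultures. SE is the absolute log2 change divided by the square root of F. Labels do not say that replicates were separate cultures or animals, so p-values measure the spread between these samples, which may be technical. The script was tested on simulated counts.

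The 48 genes and all lists were chosen with earlier results of these data known. In each comparison the 3 called genes with the lowest and the 3 with the highest log2 change were named, besides 10 genes named throughout and, in the WT comparisons and the interaction, the 3 smallest p-values. Of the other lists, the called gene with the lowest and the one with the highest change could be named, besides FOXM1, MYBL2, CCND1, CDKN1A and CDKN2A. Genes named because 5 or fewer of a list were called, and those that illustrate a role or an uneven group, were chosen after their values were seen. Alternatives were RLE and upper quartile scaling, DESeq2 1.42.0, other filters (1 count in all, or 10 in every culture), a replicate block, a 2-fold minimum, all 9 MEF cultures in 1 fit, each culture left out and, chosen after seeing the data, offsets from transcript length and GC (robust loess per culture, centred on its median).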

Additional observations from a re-analysis of the deposited data

Results flagged for a closer look

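The effect of sgPrrx1 differed between MEF, MMTV-CAF and wound-healing fibroblasts for 45 of the 48 genes, against 80.1% of the 14972 genes tested, by the test of the difference itself over the 18 WT and sgPrrx1 cultures. Of the genes named in the report, edgeR's adjusted p was 4.94e-14 for TOP2A, 1.18e-12 for CCNB2, 1.9e-11 for BUB1B and 2.2e-09 for CDK1. It was 4.9e-07 for CCNB1, 2.5e-07 for PCNA, 8.93e-07 for CCNE1, 2.46e-05 for CDC20 and 0.000331 for MCM2. Groups of 3 are too small for a test of single outlying cultures.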

How the results depend on the processing

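Apart from fits that left out a culture, 99 of 128 counts of called genes stayed within 1.5 times the reported count, 54 of 64 mean changes moved by less than 1 SD between replicates, all 28 counts of genes with a differing sgPrrx1 effect stayed within 1.5 times, and 475 of 531 values of single genes kept direction and side of the threshold. The cause of the changes below was not tested, except that a 2-fold minimum can only remove calls.

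In mutant MEF the number of lower genes was 4 by DESeq2 (BUB1B, RACGAP1, MCM3 and PCNA), 1 with the replicate block (MCM3), 0 with a 2-fold minimum, 5 with all 9 MEF cultures and 6 with offsets for transcript length and GC. The number higher was 4 with a 2-fold minimum, and the mean change was 0.25 with offsets. In sgPrrx1 MEF the number lower was 0 with RLE scaling, without a filter and with a 2-fold minimum, 2 with upper quartile scaling, with 10 counts in every culture and with the block, 3 by DESeq2 and 4 with offsets. MKI67, MCM2 and CCNE1 were called there with the block (adjusted p 0.0105, 0.00434 and 0.0302). The number higher was 20 with the block, 0 with a 2-fold minimum and 8 with all 9 MEF cultures.

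In wound-healing fibroblasts a 2-fold minimum left 1 lower (SPC24) and 0 higher, and the mean change was -0.16 with upper quartile scaling and -0.10 with offsets. In MMTV-CAF it left 0 lower and 6 higher, and the mean was 0.57 with offsets. For sgPrrx1 against mutant MEF the block left 5 lower (CCNB2, MAD2L1, KIF23, CCNE1 and TYMS, without CENPE and MCM2) and 1 higher (MCM3), a 2-fold minimum 0 and 1, and offsets gave 9 higher. For WT wound-healing fibroblasts against WT MEF the mean was 0.10 with offsets. For WT MMTV-CAF against WT MEF it was -0.52 without a filter and -0.65 with offsets, which gave 3 higher. For WT MMTV-CAF against WT wound-healing fibroblasts upper quartile scaling gave 3 higher and a mean of -0.94, no filter a mean of -0.85, and offsets 2 higher and a mean of -0.76.

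Leaving out 1 culture gave 1 to 2 lower, 20 to 26 higher and a mean of 0.31 to 0.41 in mutant MEF, and 0 to 3, 5 to 19 and 0.15 to 0.23 in sgPrrx1 MEF. It gave 30 lower, 11 higher and a mean of -0.14 to -0.13 in wound-healing fibroblasts, and 1, 45 and 0.60 to 0.62 in MMTV-CAF. For sgPrrx1 against mutant MEF it gave 7 to 18 lower, 3 to 6 higher and -0.23 to -0.13. Between WT cells it gave 18 to 20, 27 to 28 and 0.30 to 0.35 (wound-healing fibroblasts against MEF), 36 to 39, 4 to 7 and -0.58 to -0.51 (MMTV-CAF against MEF), and 36 to 41, 3 to 5 and -0.88 to -0.85 (MMTV-CAF against wound-healing fibroblasts). Genes whose sgPrrx1 effect differed between cell types numbered 45 to 47.

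With offsets, KIF11, HMMR, ESPL1 and PCNA (WT wound-healing fibroblasts against WT MEF), MAD2L1 (WT MMTV-CAF against WT MEF), and MKI67 and ESPL1 (WT MMTV-CAF against WT wound-healing fibroblasts) were called in the opposite direction. In the comparisons of loss with WT, the named genes whose direction turned had not passed the test in the reported fit. In mutant MEF these were CCNB1 (-0.080 to 0.13 with 1 culture left out, below 0 without WT replicate 3 or mutant replicate 3, and -0.26 with offsets), CDC20 (0.0047 with offsets) and TOP2A (-0.083 with offsets). In sgPrrx1 MEF PCNA was at -0.0024 with RLE scaling, -0.0025 by DESeq2, -0.0044 with the block, -0.011 with 10 counts in every culture, -0.0098 with all 9 MEF cultures, -0.031 with upper quartile scaling and -0.16 with offsets, and ran from -0.076 to 0.088 with 1 culture left out, below 0 without WT replicate 3 or sgPrrx1 replicate 1. There CCNB1 ran from -0.13 to 0.035, above 0 without WT replicate 2 or sgPrrx1 replicate 3, and CDC20 from -0.076 to 0.029, above 0 without sgPrrx1 replicate 3 (0.014 with offsets). In MMTV-CAF E2F1 ran from -0.024 to 0.0039, above 0 without sgPrrx1 replicate 2 (0.22 with offsets), and PLK1 was at 0.075 with offsets. With offsets both E2F1 and PLK1 passed the test there.

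The replicate numbers did not pair the cultures. Correlations of same-numbered cultures' deviations from the group mean ran from -0.38 to -0.06 for mutant MEF, -0.07 to 0.32 for sgPrrx1 MEF, -0.09 to -0.06 for wound-healing fibroblasts and -0.09 to 0.13 for MMTV-CAF, and the block's effect is given above. Counts per culture were high, and spread between cultures was largest in MEF. Whether this spread limited the comparisons more than depth did was not tested.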

Other observations

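In mutant and in sgPrrx1 MEF, single cultures of a group differed in opposite directions for MKI67 and for MCM2, MCM5 and CCNB1. In mutant MEF, the cultures with more MKI67 (630.3, 476 and 416 CPM) had less MCM2 (596, 759.7 and 881), less MCM5 (549, 767 and 925) and less CCNB1 (209, 254 and 283). In sgPrrx1 MEF the cultures with more MKI67 (341, 375 and 463 CPM) likewise had less MCM2 (587, 522 and 449), less MCM5 (874, 739.7 and 609) and less CCNB1 (266, 239 and 214). In WT MEF the order of MCM2 was again the reverse of that of MKI67, but the order of CCNB1 was not. With 3 cultures in each group this is a description, and the genes share their libraries.

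WT MEF replicate 3 stood apart for E2F1 (55.7, 63.9 and 150.3 CPM) and also for the inhibitor CDKN1A (88.3, 90.3 and 208 CPM), while MYBL2 was even across the same cultures (78.5, 83.9 and 84.4 CPM). DBF4, the regulatory subunit of the CDC7 kinase, which starts DNA replication, was uneven within groups. It was at 90.3, 22.9 and 81.7 CPM in WT MEF and 386, 134 and 180.4 in sgPrrx1 MEF, where its log2 change was 1.81 (edgeR adjusted p = 0.0392). In sgPrrx1 MMTV-CAF it was at 73.4, 139.6 and 138 CPM and in WT wound-healing fibroblasts at 60.2, 118 and 118, so that 1 culture of each of these groups lay well below the other 2.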
